A study of Mus musculus with 12 samples.

Results

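Transcript levels of 9 genes for digestive enzymes were followed in 12 mouse liver RNA-seq libraries. They are 2 alpha-amylases (Amy1 and Amy2a1), 3 elastases (Cela1, Cela2a and Cela3b), chymotrypsinogen (Ctrb1), a trypsinogen (Prss2), carboxypeptidase A1 (Cpa1) and pancreatic triglyceride lipase (Pnlip), 9 of the 47069 genes in the deposited table, each found by its gene symbol. The members were selected on earlier results for these same libraries, among them a lower Amy2a1 in Cdk1 Liv-/- than in WT. Differences between the genotypes are therefore given for the members as a description, without a test. The interaction of genotype and compartment is formed from the same genotype differences and is described in the same way. Tests of members were kept to the differences between compartments.

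The Cdk1 Liv-/- mice carried Cdk1 flox/flox and Albumin-Cre, a Cre recombinase under the albumin promoter that acts in cells of the hepatocyte lineage, and the controls are labelled wild type (WT) with no further allele. RNA came from isolated hepatocytes or from whole liver at postnatal day 14 (P14), which gives 4 groups of 3 libraries, hepatocytes and whole liver of each genotype. The methods state that only males were used. Polyadenylated RNA was read as single ends of 75 bases, and each gene has a level in FPKM, the fragments mapped to it scaled by transcript length and library size. All levels below are FPKM, which being scaled by length can be compared between genes.

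Alpha-amylases cut the bonds between glucose units inside starch and glycogen. In the mouse, Amy1 is known as the amylase of salivary glands and liver and the Amy2 genes as those of the pancreas. Acinar cells of the pancreas make elastases, chymotrypsinogen, trypsinogens and procarboxypeptidases as inactive precursors, together with lipases and with inhibitors that hold trypsin in check.

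Before the enzymes, Cdk1 itself was read as a check of the labels. Cdk1, the kinase that drives entry into mitosis, was at 27.9, 20.4 and 28.2 FPKM in WT hepatocytes and at 9.68, 11.8 and 6.87 FPKM in Cdk1 Liv-/- hepatocytes. In whole liver its level was 25.3, 22.7 and 21.5 FPKM in WT and 11.7, 12.1 and 14.2 FPKM in Cdk1 Liv-/-. Every Cdk1 Liv-/- library lay below every WT library of its compartment, in the direction the labels give. The log2 difference was -1.40 in hepatocytes (standard error 0.22, adjusted p = 0.0148 from limma, n = 3 against 3) and -0.85 in whole liver (standard error 0.10, adjusted p = 0.00353 from limma, n = 3 against 3). The value in whole liver was short of a log2 difference of 1, which a call needed besides an adjusted p of at most 0.1, and it passed both with median-ratio size factors at -1.06 (adjusted p = 0.00237; the alternatives ran from 0.00195 to 0.0290). Cre removes 1 exon of Cdk1, so the gene level can include transcripts that lack it.

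A pair of libraries stood apart, and WT whole liver replicate 3 did in its erythroid markers. Cdk1 Liv-/- whole liver replicate 3 had 158 FPKM of Xist, the RNA of the inactive X chromosome, while 4 genes of the Y chromosome (Kdm5d, Uty, Eif2s3y and Ddx3y) had 0 FPKM. No other library passed 0.14 FPKM of Xist, and in those 11 the Y genes added up to 48.4 to 62.1 FPKM. WT hepatocytes replicate 3 had more RNA of non-parenchymal cells than the other WT hepatocyte libraries. The summed level of 5 Kupffer cell markers was 356 FPKM there against 194 and 102 FPKM, and that of 7 erythroid markers was 581 FPKM against 146 and 107 FPKM. The pair was kept, and calls that end when either is left out are named with the genes they concern. WT whole liver replicate 3, also kept, had an erythroid sum of 2170 FPKM against 1103 and 1229 FPKM in the other WT whole liver libraries.

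An FPKM of 1 on 1 kb of transcript stood for an estimated 34.9 to 49.9 reads, judged from the steps between the lowest values of each library. Cdk1 Liv-/- hepatocytes replicate 3 was at 34.9. A second estimate, on full transcript lengths, gave 59.7 for it and 33.7 to 42.8 for the other libraries. On the first estimate, used throughout, Amy1 rested on about 8340 to 13000 reads a library, Cela1 on 119 to 310 reads, and Cela2a on 23.0 to 82.8 reads. Members at 0.02 or 0.03 FPKM rest on about 1 or 2 reads, and differences among such values were not detectable at this depth.

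The levels fell into steps. Amy1 was above every other member in all 12 libraries, at 91.7 to 141 FPKM, and ranked between place 494 and place 840 among all genes of a library. Cela1 followed at 3.29 to 6.23 FPKM and Cela2a at 0.48 to 1.99 FPKM, both found in 12 of 12 libraries. Amy2a1 ranged from 0.02 to 38.3 FPKM, above Cela1 in the 6 WT libraries and below Cela2a in the 6 Cdk1 Liv-/- libraries. The remaining 5 members (Cela3b, Ctrb1, Prss2, Cpa1 and Pnlip) did not pass 0.44 FPKM in any library. Against the highest of the 7 other digestive enzymes, Amy1 was 14.8 to 41.4 times as high per length. Only 4 of the 9 members (Amy1, Amy2a1, Cela1 and Cela2a) reached the mean of 0.1 FPKM over the 12 libraries that a test required.

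**Figure D1:**
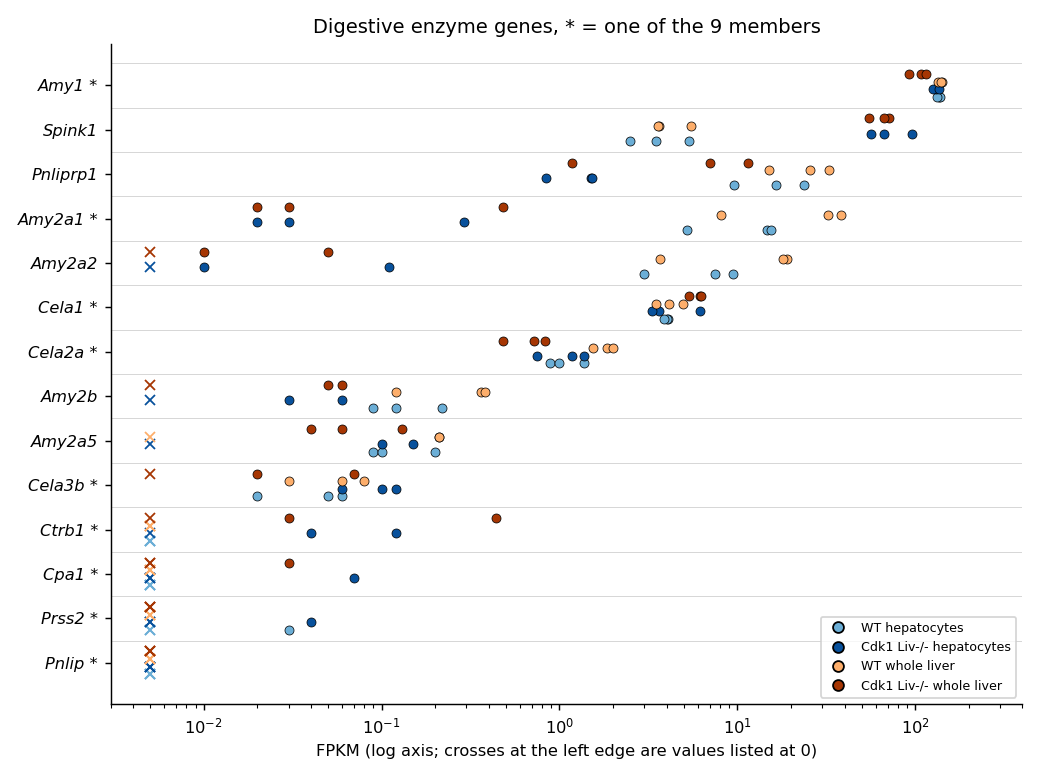
Level of each member (starred) and of 5 further genes in the 12 libraries. Each row is a gene and each point a library, on a logarithmic FPKM axis, coloured by group, with crosses at the left edge for values listed at 0. Amy1 sits near the right edge in every library, Amy2a1 and Amy2a2 split by genotype, and Pnlip is a cross in all 12.

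Amy1 (ENSMUSG00000074264) lies on the minus strand at chr3:113555710-113606699 in mm10. RefSeq gives it 2 starts that are 2988 bases apart, and as background the upstream start is known for the parotid gland and the downstream start for liver. A level for the whole gene does not tell the starts apart. The 250 bases before each RefSeq start are printed because Amy1 was the only amylase above 1 FPKM in every library. Which start was used was not measured, and GENCODE M21 puts the 5' end of the gene further upstream. They are on the minus strand of GRCm38.p6 at chr3:113577751-113578000 (upstream) and chr3:113574763-113575012 (downstream), and the capitals mark the motif TATAAA, found at bases -63 to -58 of the downstream window and not in the upstream one.
Amy1 upstream start: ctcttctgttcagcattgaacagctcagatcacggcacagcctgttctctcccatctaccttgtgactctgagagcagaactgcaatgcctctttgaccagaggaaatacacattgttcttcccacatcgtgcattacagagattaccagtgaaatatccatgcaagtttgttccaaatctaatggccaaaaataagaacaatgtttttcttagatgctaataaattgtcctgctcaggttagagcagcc
Amy1 downstream start: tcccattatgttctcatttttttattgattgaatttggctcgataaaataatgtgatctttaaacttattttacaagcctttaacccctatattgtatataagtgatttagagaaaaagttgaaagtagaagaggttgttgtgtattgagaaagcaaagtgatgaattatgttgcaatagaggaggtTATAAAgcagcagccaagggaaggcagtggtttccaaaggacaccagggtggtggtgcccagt

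Amy1 was at 137, 138 and 132 FPKM in WT hepatocytes and at 131, 126 and 136 FPKM in Cdk1 Liv-/- hepatocytes. In whole liver it was at 141, 135 and 140 FPKM in WT and at 107, 91.7 and 114 FPKM in Cdk1 Liv-/-. The 3 libraries of Cdk1 Liv-/- whole liver were the lowest of the 12 and did not overlap with any other group, while the other 9 libraries lay between 126 and 141 FPKM. Ordered by group mean, WT whole liver stood at 139 ± 3.38, WT hepatocytes at 136 ± 3.42, Cdk1 Liv-/- hepatocytes at 131 ± 5.11 and Cdk1 Liv-/- whole liver at 104 ± 11.5 FPKM (SD, n = 3 each). Neighbours among the first 3 groups overlapped and differed by no more than their spread. How many of all genes separate without overlap was not counted. Such separations, here and below, are therefore not read as particular to a gene. By limma, 28.4% of all genes tested in hepatocytes and 46.6% in whole liver had an unadjusted p under 0.05 between genotypes.

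Between WT hepatocytes and WT whole liver, Amy1 differed by a log2 value of -0.03 (limma, standard error 0.05, adjusted p = 0.709). In Cdk1 Liv-/- it was higher in hepatocytes than in whole liver, with a log2 difference of 0.33 (standard error 0.10, adjusted p = 0.0473 from limma), and 3 of 3 hepatocyte libraries lay above all whole liver libraries. That difference passed the adjusted p and was short of a log2 difference of 1. It was 0.24 without the whole liver library at 91.7 FPKM, and 0.24 to 0.61 over all alternatives (adjusted p = 0.00679 to 0.118). Over all genes tested, the median difference between these groups was -0.19.

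The interaction compares the difference between genotypes in hepatocytes with that in whole liver. For Amy1 the log2 differences between genotypes were -0.05 in hepatocytes and -0.41 in whole liver, and the interaction was 0.36, given without a test. It kept its sign in 19 of 19 alternatives and ran from 0.27 to 0.51. In bulk tissue, fewer cells that hold a transcript and less of it per cell cannot be told apart.

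**Figure D2:**
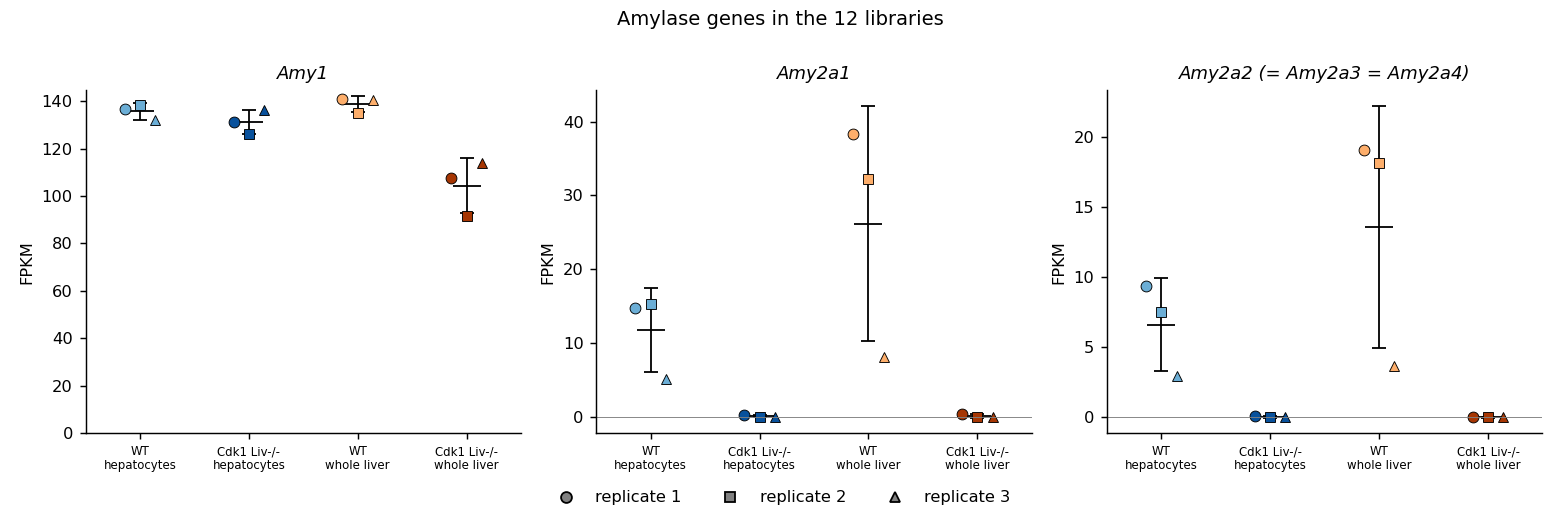
FPKM of Amy1, Amy2a1 and Amy2a2 (whose values are also those of Amy2a3 and Amy2a4) in the 4 groups. Points are libraries, with the replicate number given by the symbol, and bars are the mean and SD of 3 libraries. Amy1 stays between 91.7 and 141 FPKM, while Amy2a1 is at 5.19 to 38.3 FPKM in WT and at most 0.48 FPKM in Cdk1 Liv-/-.

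Amy2a1 (ENSMUSG00000070360), a pancreatic-type amylase, lies at chr3:113529403-113532428 on the minus strand. It was at 14.8, 15.4 and 5.19 FPKM in WT hepatocytes and at 38.3, 32.2 and 8.13 FPKM in WT whole liver. In Cdk1 Liv-/- it was at 0.29, 0.02 and 0.03 FPKM in hepatocytes and at 0.48, 0.03 and 0.02 FPKM in whole liver. All 6 WT libraries were above 5 FPKM and all 6 Cdk1 Liv-/- libraries below 0.5 FPKM, so the genotypes did not overlap in either compartment, whereas the compartments overlapped within each genotype. Replicate 3 was the lowest library of both WT groups, and replicate 1 the highest of both Cdk1 Liv-/- groups.

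In reads, the Cdk1 Liv-/- values of Amy2a1 stood for an estimated 9.58, 0.646 and 0.854 in hepatocytes and 18.6, 1.17 and 0.787 in whole liver, so 4 of these 6 libraries hold about 1 read. On the log2(FPKM + 0.5) scale Cdk1 Liv-/- was lower by a difference of -4.21 in hepatocytes and -5.10 in whole liver. The added 0.5 FPKM limits both values, which ran from -3.40 to -5.87 and from -4.30 to -6.70 over the alternatives, and since Amy2a1 was chosen with this contrast known they carry no test.

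Between the compartments, the log2 difference of Amy2a1 was -0.997 in WT (standard error 0.68, adjusted p = 0.450 from limma) and -0.10 in Cdk1 Liv-/- (standard error 0.30, adjusted p = 0.810 from limma), with overlapping libraries in both. Its interaction, untested, was 0.89. The WT compartment difference was -0.51 without WT hepatocytes replicate 3 and -1.68 without WT whole liver replicate 3, the lowest library of each group, and -0.59 without WT whole liver replicate 1. Without the same 3 libraries in turn the interaction was 0.41, 1.57 and 0.49.

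Amy2a1 has near copies beside it. The 7 amylase genes all lie on the minus strand of chromosome 3 within 459 kb, and Amy2a2, Amy2a3 and Amy2a4 have annotated transcripts of 3717 bases that are identical, base for base. Their levels in the table are identical too, at 9.41, 7.49 and 2.97 FPKM in WT hepatocytes and 19.1, 18.1 and 3.67 FPKM in WT whole liver. In Cdk1 Liv-/- each was at 0.11, 0.01 and 0 FPKM in hepatocytes and at 0.01, 0 and 0.05 FPKM in whole liver. The 3 copies were low in Cdk1 Liv-/- like Amy2a1 and, like it, lowest in replicate 3 of both WT groups, though the order of the other libraries differed. Amy2a1 was 1.57 to 2.22 times as high per length in the 6 WT libraries. Amy2a5 stayed at 0.21 FPKM or less and the pseudogene Amy2b at 0.38 FPKM or less in every library.

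How far reads can separate these copies was counted on the annotated transcripts, cut into all runs of 75 bases. Of the 816 runs of Amy2a1, 43 (5.27%) were found in no other gene and 94.7% were shared with Amy2a2 to Amy2a5. Amy2a2, Amy2a3 and Amy2a4 had 0 runs of their own, Amy2a5 had 52.2% and Amy2b 78.0%. The division of the signal among Amy2a1 to Amy2a4 is therefore uncertain. Their sum in FPKM depends on that division too. A shared read counts for more on the 890 bases of Amy2a1 than on the 3717 bases of each copy. Amy1 shared 0 of its 3368 runs with any Amy2 gene, from which it differs in 91 of 773 aligned bases of Amy2a1 (88.2% identity), so the contrast between Amy1 and the Amy2 genes does not rest on shared reads. It did share 31.3% of its runs with Rnpc3, a gene for a splicing factor that overlaps its upstream end on the same strand and was at 4.84 to 6.74 FPKM.

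Summed over 6 genes, Amy2 amounted to 43.3, 38.1 and 14.3 FPKM in WT hepatocytes and 96.0, 87.1 and 19.3 FPKM in WT whole liver. The sums in Cdk1 Liv-/- were 0.68, 0.2 and 0.16 FPKM in hepatocytes and 0.69, 0.15 and 0.21 FPKM in whole liver. In consequence the share of Amy1 in the summed amylase level was 59.5% to 90.2% in the 6 WT libraries and at least 99.4% in the 6 Cdk1 Liv-/- libraries. Total amylase in hepatocytes was 168 ± 18.6 FPKM for WT and 131 ± 5.10 FPKM for Cdk1 Liv-/-, and in whole liver 206 ± 41.1 and 105 ± 11.6 FPKM (SD, n = 3 each). The sums, the share of Amy1 and the totals depend on how shared reads were divided among the Amy2 genes.

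**Figure D3:**
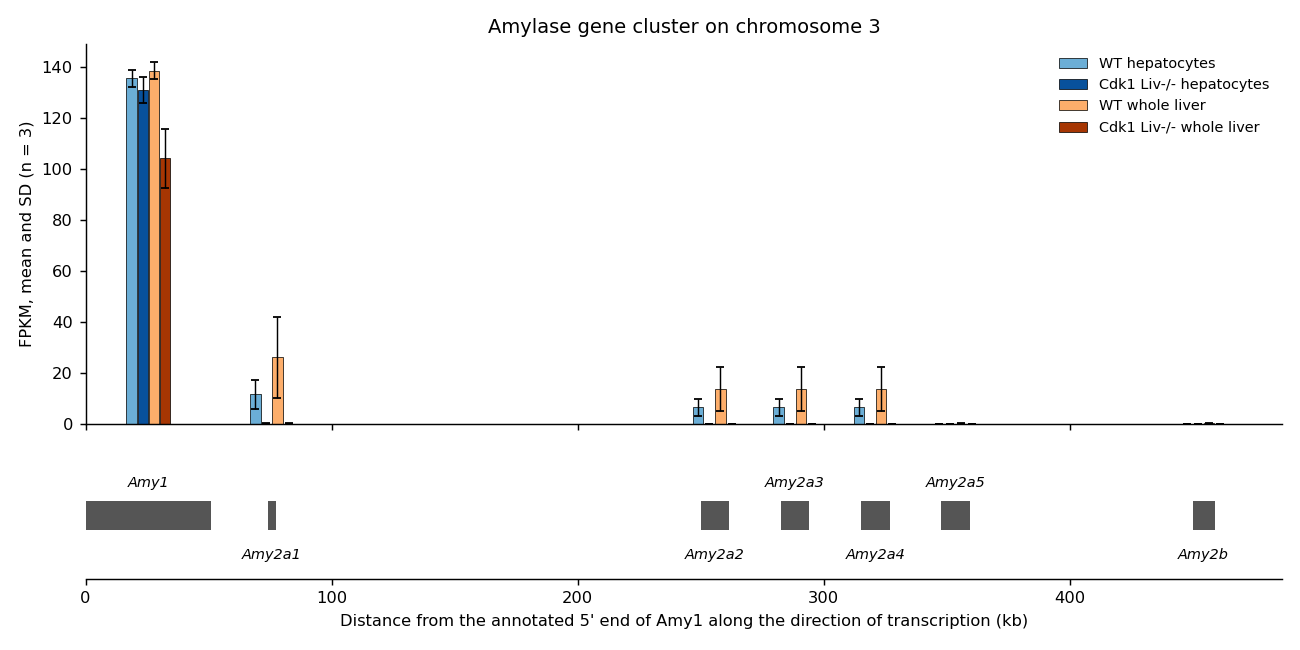
The amylase genes along chromosome 3, in kb from the annotated 5' end of Amy1 in the direction of transcription (lower strip), and their mean FPKM with SD over 3 libraries in each group (upper bars). Amy1 has tall bars in all 4 groups, Amy2a1 and the copies Amy2a2 to Amy2a4 have visible bars in the WT groups only, and Amy2a5 and Amy2b have none above 0.3 FPKM.

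The windows before the starts of Amy2a1 and Amy2a2 are printed to show how alike these neighbours are, whose levels cannot be fully separated. They lie on the minus strand of GRCm38.p6 at chr3:113532429-113532678 for Amy2a1 and chr3:113356659-113356908 for Amy2a2, and capitals mark the bases that differ between them, with 6 substitutions and 2 inserted or deleted bases. The windows of Amy2a2, Amy2a3 and Amy2a4 are identical.
Amy2a1: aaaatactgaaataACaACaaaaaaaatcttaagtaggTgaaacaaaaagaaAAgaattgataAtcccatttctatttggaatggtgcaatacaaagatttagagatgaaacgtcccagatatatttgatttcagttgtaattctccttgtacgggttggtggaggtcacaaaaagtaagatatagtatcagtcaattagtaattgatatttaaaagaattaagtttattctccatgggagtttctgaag
Amy2a2: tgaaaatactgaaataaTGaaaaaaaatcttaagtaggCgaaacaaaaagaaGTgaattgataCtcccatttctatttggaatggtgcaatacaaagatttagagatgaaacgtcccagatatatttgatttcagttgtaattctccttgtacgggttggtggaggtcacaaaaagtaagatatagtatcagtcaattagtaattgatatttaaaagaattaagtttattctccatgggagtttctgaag

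Amy2a5 has its RefSeq start 138 bases downstream of the matching position of Amy2a1. Taken from 250 bases before to 50 bases past each start, longer than the printed sequence, the windows of the 2 genes share a run of 154 bases. Both strands of the 250 bases before the RefSeq starts were searched for 4 motifs, which were picked after the sequences had been looked at: the TATA box TATAAA, the E-box CANNTG (with N any base), then TTGCNNAA, and last TGGGAA. Of 32851 promoters, 12.4% held TATAAA, 66.2% CANNTG, 9.56% TTGCNNAA and 21.6% TGGGAA. Among the amylases, TATAAA was found for Amy1 (downstream start), Amy2a5 and Amy2b. CANNTG was found once in each Amy2 gene and in neither window of Amy1. Because the Amy2a5 window ends 138 bases further downstream, a match in it can lie outside the window searched for Amy2a1. All such matches are descriptions of the letters only.

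Cela1 (ENSMUSG00000023031) codes for an elastase that, unlike the other pancreatic elastases, is known to be made in several tissues. It was at 4.08, 4.0 and 3.88 FPKM in WT hepatocytes and at 6.14, 3.61 and 3.29 FPKM in Cdk1 Liv-/- hepatocytes. In whole liver it was at 4.13, 4.96 and 3.47 FPKM in WT and at 5.35, 6.20 and 6.23 FPKM in Cdk1 Liv-/-. The hepatocyte groups overlapped, with 1 high Cdk1 Liv-/- library, whereas in whole liver the 3 Cdk1 Liv-/- libraries were above the 3 WT libraries. The log2 difference between the genotypes was 0.07 in hepatocytes (-0.18 without Cdk1 Liv-/- hepatocytes replicate 1) and 0.46 in whole liver (0.26 with median-ratio size factors), given without a test.

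Cela2a (ENSMUSG00000058579), an acinar elastase, was at 0.88, 1.0 and 1.37 FPKM in WT hepatocytes and at 1.18, 0.75 and 1.37 FPKM in Cdk1 Liv-/- hepatocytes. In whole liver it was at 1.84, 1.99 and 1.55 FPKM in WT and at 0.72, 0.83 and 0.48 FPKM in Cdk1 Liv-/-. WT whole liver was thus the highest group, above every library of the 3 others, the hepatocyte groups overlapped, and Cdk1 Liv-/- whole liver lay below all WT hepatocyte libraries and overlapped with Cdk1 Liv-/- hepatocytes. The log2 difference between the genotypes was 0.01 in hepatocytes and -0.97 in whole liver, again as a description.

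Between compartments neither elastase was called. In WT the log2 difference of hepatocytes from whole liver was -0.05 for Cela1 (standard error 0.14, adjusted p = 0.848 from limma) and -0.54 for Cela2a (standard error 0.16, adjusted p = 0.18 from limma, 3 of 3 hepatocyte libraries below). In Cdk1 Liv-/- it was -0.45 for Cela1 (standard error 0.22, adjusted p = 0.167 from limma) and 0.43 for Cela2a (standard error 0.20, adjusted p = 0.136 from limma). The value of Cela1 was -0.70 without Cdk1 Liv-/- hepatocytes replicate 1 and -0.30 without replicate 3 of that group, with an adjusted p of 0.0140 to 0.544 over the alternatives. The interaction, given without a test, was 0.98 for Cela2a and -0.40 for Cela1. For Cela2a it ran from 0.75 to 1.31 over 19 alternatives. For Cela1 it was -0.65 without Cdk1 Liv-/- hepatocytes replicate 1 and -0.24 without replicate 3 of that group.

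The other acinar enzymes were at or near 0. Cela3b, a further acinar elastase, was listed at 0 in Cdk1 Liv-/- whole liver replicate 2 and reached at most 0.12 FPKM elsewhere. Ctrb1, the precursor of chymotrypsin, was listed at 0 in all 6 WT libraries and was above 0 in Cdk1 Liv-/- hepatocytes replicates 2 and 3 (0.12 and 0.04 FPKM) and Cdk1 Liv-/- whole liver replicates 1 and 3 (0.44 and 0.03 FPKM). The value of 0.44 FPKM stands for an estimated 16.8 reads, the most behind any of these 5 genes. Prss2, a trypsinogen, was above 0 only in WT hepatocytes replicate 1 (0.03 FPKM) and Cdk1 Liv-/- hepatocytes replicate 3 (0.04 FPKM). Cpa1, which trims proteins from their carboxyl end, was above 0 only in Cdk1 Liv-/- hepatocytes replicate 2 (0.07 FPKM) and Cdk1 Liv-/- whole liver replicate 2 (0.03 FPKM). Pnlip, the main lipase of pancreatic juice, was listed at 0 in all 12 libraries. None of the 5 was tested. Their annotated transcripts shared few runs of 75 bases with other genes, at 11.4% for Cela3b, 0.945% for Prss2 and 0 for Ctrb1, Cpa1 and Pnlip. For Cela2a the share was 14.3%.

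Counted over the members, limma called 0 of the 4 tested genes between WT hepatocytes and WT whole liver, where it called 0.466% of the 17386 genes tested, and 1 of the 4 had an unadjusted p under 0.05, as had 18.8% of all genes. Between Cdk1 Liv-/- hepatocytes and Cdk1 Liv-/- whole liver it called 0 of 4, with 11.0% of all genes called and 1 of the 4 at an unadjusted p under 0.05, beside 46.2% of all genes. In Cdk1 Liv-/- Amy2a1 was at most 0.48 FPKM, so with 0.5 FPKM added it could not reach a call between compartments. With only 4 genes, these counts are not read further. In the interaction, where an adjusted p up to 0.1 was enough, 9.85% of all genes passed and 2 of the 4 members, a count that is no test either since it rests on the genotype differences. In the genotype contrasts, which chose the members, the count of 1 of 4 (Amy2a1) in each compartment is set by that choice and is no test. It stands beside 6.37% of all genes called in hepatocytes and 5.59% in whole liver, and nothing is read from it. The comparisons share libraries, since each group enters 2 of them.

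**Figure D4:**
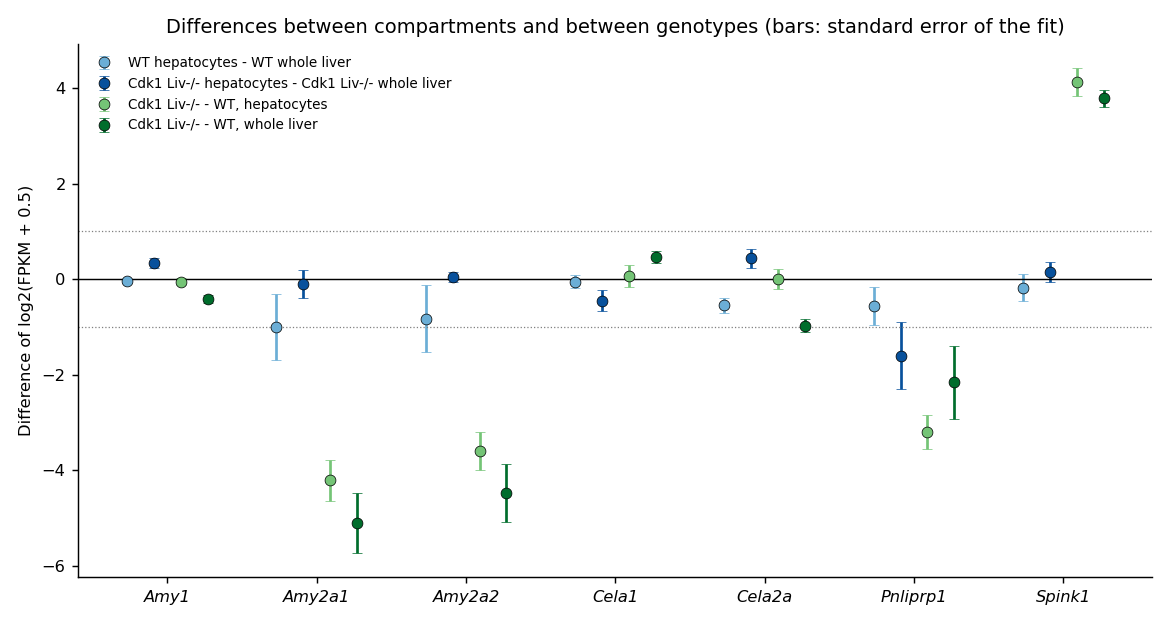
Differences of log2(FPKM + 0.5) for the 4 tested members, Amy2a2, Pnliprp1 and Spink1, between compartments (blue) and between genotypes (green). Points are differences of group means with n = 3 libraries a group, bars are standard errors of the fit, and dotted lines mark a log2 difference of 1. Amy1, Cela1 and Cela2a stay within the dotted lines, Amy2a1 and Amy2a2 are far below 0 in the genotype comparisons, and Spink1 is near 4 in both.

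A list of 36 other pancreatic enzymes and acinar secretory proteins places the members in context. Of its 35 genes in the table, 9 were listed at 0 in every library, among them Prss1, Try5, Cela3a and Pla2g1b, and 29 stayed under 1 FPKM in all. In each genotype comparison 11 genes were tested, of which 1 was higher (Spink1) and 4 were lower (Amy2a2, Amy2a3, Amy2a4 and Pnliprp1) in Cdk1 Liv-/-. Over all genes tested, 6.37% were called in hepatocytes and 5.59% in whole liver. The 3 amylase copies have identical values and count as 1 signal. They entered the list with the fall of Amy2a1 known, so their log2 differences of -3.60 in hepatocytes and -4.47 in whole liver are a description without a test and no separate evidence. Between compartments limma called 0 of the 11 in WT and 0 in Cdk1 Liv-/-, with 1 at an unadjusted p under 0.05 in each. In the interaction it called 0, with 0 at an unadjusted p under 0.05. Over all genes the shares at that p were 18.8%, 46.2% and 23.6%. The amylase copies reached at most 0.11 FPKM in Cdk1 Liv-/-, and Reg1, also of the list, at most 0.04 FPKM in WT. With 0.5 FPKM added they could not reach a call between those compartments. Amy2a5, Amy2b and Tff2 stayed under 0.5 FPKM in every library and could not reach a call between any groups, genotypes included. The counts of called genes are therefore not read further. The median log2 difference of the 11 was -0.12 in hepatocytes and -0.13 in whole liver between genotypes, beside 0.05 and 0.18 over all genes tested. That median counts each of the identical copies. With them taken as 1 gene, the middle gene was Tff2, at -0.01 and 0.08, so no shift of the list is read from it.

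Pnliprp1, a relative of pancreatic lipase for which little lipase activity is known, was next to Spink1 in mean level among the genes of that list. It was at 23.8, 16.5 and 9.56 FPKM in WT hepatocytes and at 1.5, 1.52 and 0.84 FPKM in Cdk1 Liv-/- hepatocytes. In whole liver its level was 25.5, 32.8 and 15.0 FPKM in WT and 11.5, 1.17 and 6.97 FPKM in Cdk1 Liv-/-. The genotypes did not overlap in either compartment, replicate 3 was again the lowest of both WT groups, and Cdk1 Liv-/- whole liver spread widely, with replicate 1 at the top and replicate 2 at the bottom. Its log2 difference between genotypes was -3.20 in hepatocytes (limma, standard error 0.35, adjusted p = 0.00509) and -2.16 in whole liver (limma, standard error 0.76, adjusted p = 0.0739).

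The hepatocyte call of Pnliprp1 held in 14 of 14 alternatives, and that in whole liver in 8 of 14, with adjusted p values of 0.0276 to 0.185. Leaving out any of WT whole liver replicates 1, 2 and 3 or Cdk1 Liv-/- whole liver replicate 3 ended it, at -1.92 to -2.47, and without Cdk1 Liv-/- whole liver replicate 2 the difference was -1.32. Between the compartments of Cdk1 Liv-/- it was -1.60 (standard error 0.71, adjusted p = 0.128 from limma), which became a call at -2.43 without Cdk1 Liv-/- whole liver replicate 2 (adjusted p = 0.00692, with a range of 0.00692 to 0.301) and, at the same -1.60, with all 12 libraries in 1 fit (adjusted p = 0.0584). It was -1.01 without Cdk1 Liv-/- whole liver replicate 1. The interaction was -1.04 (limma, standard error 0.87, adjusted p = 0.518), and -0.45 and -1.87 without replicates 1 and 2 of Cdk1 Liv-/- whole liver.

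Spink1, a secreted inhibitor of trypsin, went the other way. It was at 2.48, 3.49 and 5.34 FPKM in WT hepatocytes and at 56.2, 95.2 and 66.9 FPKM in Cdk1 Liv-/- hepatocytes. In whole liver it was at 5.45, 3.64 and 3.57 FPKM in WT and at 55.1, 70.8 and 66.3 FPKM in Cdk1 Liv-/-. Every Cdk1 Liv-/- library was above 55 FPKM and every WT library below 6 FPKM. Its log2 difference between genotypes was 4.12 in hepatocytes (limma, standard error 0.29, adjusted p = 0.00160) and 3.79 in whole liver (limma, standard error 0.18, adjusted p = 0.000235), both called in 14 of 14 alternatives. Its interaction was 0.33 (limma, standard error 0.37, adjusted p = 0.630; 0.10 to 0.59 with 1 library left out, the ends without WT hepatocytes replicates 1 and 3), and the compartments overlapped within each genotype.

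**Figure D5:**
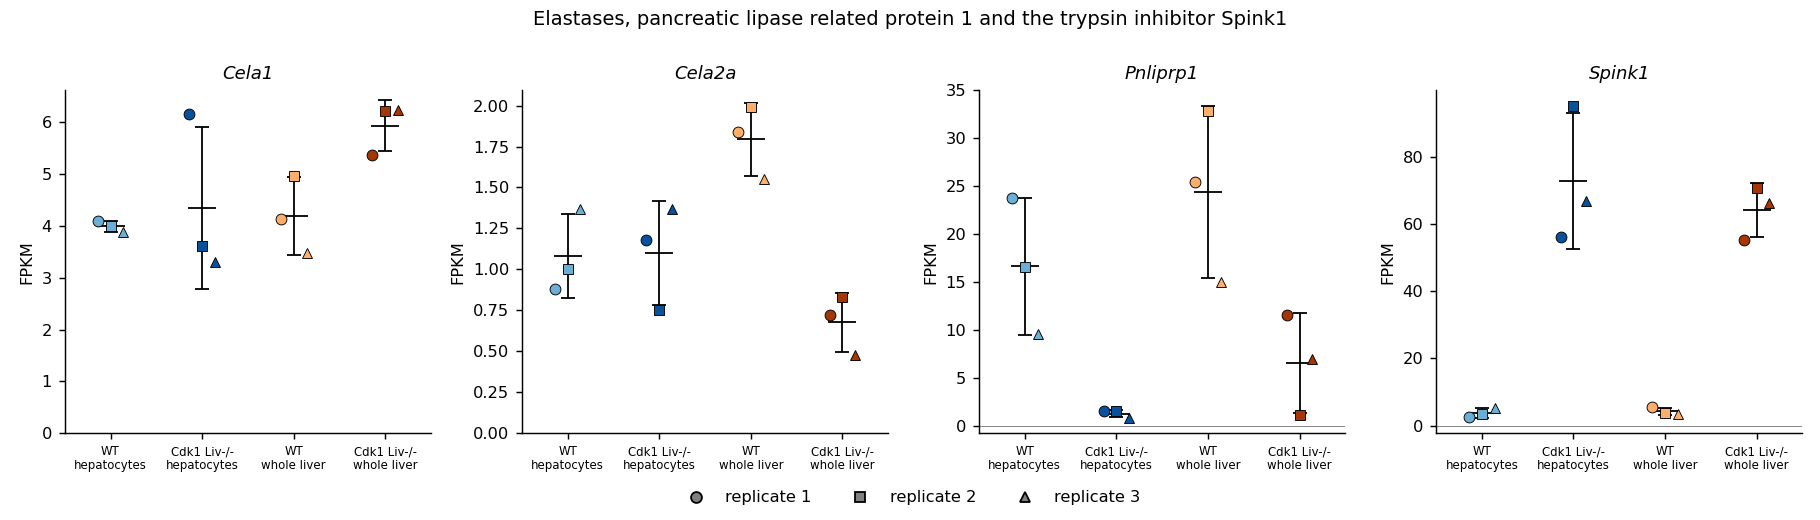
FPKM of the elastases Cela1 and Cela2a, of Pnliprp1 and of Spink1 in the 4 groups. Points are libraries, with the replicate number given by the symbol, and bars are the mean and SD of 3 libraries. Pnliprp1 is at 9.56 to 32.8 FPKM in WT and 0.84 to 11.5 FPKM in Cdk1 Liv-/-, and Spink1 is above 55 FPKM in Cdk1 Liv-/- only.

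Among the rest of the list, Reg1, a secreted protein of acinar cells, was at 2.18 FPKM in Cdk1 Liv-/- whole liver replicate 1 and at most 0.04 FPKM in the other 11 libraries. The same library held the highest value of Ctrb1, of the chymotrypsin-like Ctrl (0.67 FPKM), of Klk1 (0.77 FPKM), Tff2 (0.45 FPKM), Sycn (0.13 FPKM) and Rnase1 (0.07 FPKM), and of Amy2a1 within Cdk1 Liv-/-. Other genes peaked elsewhere, and Cdk1 Liv-/- hepatocytes replicate 2 held the highest Clps (0.16 FPKM), Cela3b (0.12 FPKM), Cpa1 (0.07 FPKM) and Cpb1 (0.06 FPKM). Summed over the list, hepatocytes had 55.4, 43.2 and 24.5 FPKM in WT and 58.9, 98.0 and 68.5 FPKM in Cdk1 Liv-/-. Whole liver had 89.4, 92.0 and 30.6 FPKM in WT and 71.3, 73.2 and 74.7 FPKM in Cdk1 Liv-/-. Spink1 was the most abundant gene of the list in Cdk1 Liv-/- and in the mean of the 12 libraries, and Pnliprp1 in WT.

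Markers of the organs that could supply these transcripts were read in the same libraries. Of 6 transcription factors of acinar cells, Ptf1a, which defines them, was listed at 0 in all 12 libraries, and Rbpjl and Bhlha15 stayed at or under 0.15 FPKM. The other 3, Nr5a2, Gata4 and Gata6, are also known in liver, and the list summed to 19.1 to 29.2 FPKM with Nr5a2 the most abundant at 8.43 to 14.4 FPKM. Gata4 was lower in Cdk1 Liv-/- hepatocytes than in Cdk1 Liv-/- whole liver (log2 difference -1.32, standard error 0.18, adjusted p = 0.00341 from limma). It was the only call of the list in the 4 comparisons.

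All 8 endocrine pancreas markers were under 1 FPKM, with Ins1, Gcg and Ppy listed at 0 in every library, Ins2 the most abundant at no more than 0.12 FPKM and a sum of 0 to 0.12 FPKM a library. All 13 salivary gland markers were under 1 FPKM as well, with 8 listed at 0 in every library (among them Smr2, Bpifa2 and Pip), Aqp5 the most abundant at no more than 0.16 FPKM and a sum of 0 to 0.19 FPKM. No gene of either list could be tested. Defining markers of the pancreas and of the salivary glands were therefore at or near 0 in libraries where Amy1 was above 90 FPKM and, in WT, Amy2a1 above 5 FPKM.

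Levels of liver cell markers differed between the groups. The 10 hepatocyte markers, led by Alb, summed to 83890 to 92585 FPKM in the 6 WT libraries and 56930 to 66728 FPKM in the 6 Cdk1 Liv-/- libraries, and none was at 0. Alb carries most of that sum, and the list went both ways in hepatocytes, where Cps1, Ass1, Tat and Apob were higher in Cdk1 Liv-/- by log2 differences of 0.66, 0.47, 0.71 and 0.16, none of them called and that of Apob with overlapping libraries. The 5 Kupffer cell markers, led by Cd5l, summed in hepatocytes to 194, 102 and 356 FPKM for WT and 125, 95.3 and 77.8 FPKM for Cdk1 Liv-/-, and in whole liver to 256, 295 and 302 FPKM for WT and 359, 505 and 403 FPKM for Cdk1 Liv-/-. Cdk1 Liv-/- whole liver, where Amy1 was lowest, was thus the group with the highest Kupffer cell sums. The 5 stellate cell markers, led by Dcn, gave 133, 85.9 and 234 FPKM, 81.0, 76.9 and 63.9 FPKM, 242, 242 and 251 FPKM, and 407, 405 and 418 FPKM in the same order of groups. The part of cell makeup in the difference of Amy1 was not tested.

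The genes whose level across the 12 libraries was most like that of Amy1, among those with a mean of at least 1 FPKM, were Gm10658 (Pearson correlation of log2 values 0.974), Hpd (0.957), Sfxn2 (0.954), Fpgs (0.951) and Cyp2j5 (0.941). For Amy2a1 they were Amy2a2, Amy2a3 and Amy2a4 (0.993 each), Nrn1 (0.987) and Gm14295 (0.978). Amy1 and its likes were lowest in Cdk1 Liv-/- whole liver. Nrn1 was at 200 to 261 FPKM in WT and 128 to 148 FPKM in Cdk1 Liv-/-, and Gm14295 at 1.96 to 5.09 FPKM in WT and at most 0.01 FPKM in Cdk1 Liv-/-. These correlations describe 12 libraries that fall into 4 groups, which all genes share.

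Of 6 neighbours of the amylase cluster on chromosome 3, 4 were tested and 0 were called between genotypes or compartments by limma. Between genotypes 1 was at an unadjusted p under 0.05 in hepatocytes and 2 in whole liver, and between compartments 0 in WT and 2 in Cdk1 Liv-/-. In the same order, the shares of all genes at that p were 28.4%, 46.6%, 18.8% and 46.2%, and of those called 6.37%, 5.59%, 0.466% and 11.0%. With 4 genes, these counts are not read further. Rnpc3, the most abundant of the neighbours, was at 6.32, 4.84 and 5.84 FPKM in WT hepatocytes and 5.15, 5.68 and 6.40 FPKM in Cdk1 Liv-/- hepatocytes. In whole liver it was at 6.74, 6.41 and 6.28 FPKM in WT and 6.42, 6.09 and 5.14 FPKM in Cdk1 Liv-/-. The genotypes overlapped for Rnpc3 in both compartments, unlike for Amy2a1 to Amy2a4. Some neighbours did not overlap either. Olfm3 lay above WT in Cdk1 Liv-/- hepatocytes and whole liver (log2 differences 0.57 and 0.49), and Prmt6 in whole liver (0.39), none of them called. Col11a1, too low to test, lay below WT in Cdk1 Liv-/- hepatocytes and above WT in Cdk1 Liv-/- whole liver. Prmt6, an arginine methyltransferase, was at 2.18 to 4.32 FPKM.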

How the data were processed

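The authors deposited FPKM for 47069 genes in 12 libraries (TruSeq Stranded mRNA), made per the submitters' processing notes with STAR and RSEM 1.2.31 on mm10. The annotation release is not given in the sources used here, and FPKM were not normalized between libraries. Here, log2(FPKM + 0.5) of the 17386 genes with a mean of at least 0.1 FPKM was tested with limma 3.58.1 (R 4.3.3; eBayes with trend, two-sided, Benjamini-Hochberg adjustment over all these genes), each comparison on its own 2 groups and the interaction on all 12 libraries. A call needed an adjusted p of at most 0.1 and, outside the interaction, a log2 difference of at least 1. The procedure was tested on simulated data.

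The members and the 16 marker lists were chosen with earlier results of these data known. Named are the members, up to 2 of the most abundant genes of each list, amylases and called genes of the pancreatic list, the 5 genes most like Amy1 and Amy2a1, and Cdk1. Others named (Rbpjl, Bhlha15, Gata6, Reg1, Ctrl, Klk1, Tff2, Sycn, Rnase1, Clps, Cpb1, Apob, Olfm3, Col11a1, list genes at 0, and the called genes in the closing section) were chosen after their values were seen. The lists cover other pancreatic enzymes, acinar transcription factors, endocrine pancreas, salivary gland, intestinal brush border, stomach, glycogen enzymes, lipases, cluster neighbours, hepatocytes, Kupffer, endothelial, stellate, bile duct and erythroid cells and neutrophils.

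Transcripts came from GENCODE M21, and promoters, matched for 9 of 9 members, from RefSeq (GRCm38.p6). Depth was estimated on single transcripts of 300 to 900 bases with at most 0.5 FPKM: at the fitted step, 64.8% to 72.2% of values were whole reads within rounding of FPKM to 2 decimals, against 16.4% to 20.4% at the median of all steps tried. Doubled depths fitted too, and the search range was set after such fits, with an earlier estimate known. Alternatives were other pseudocounts, filters, scalings, fits and libraries left out.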

Additional observations from a re-analysis of the deposited data

Results flagged for a closer look

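The effect of genotype was past the threshold for a difference between hepatocytes and whole liver in 7 of the genes first set to be named (the members, the 2 most abundant genes of each list, the amylases and called genes of the pancreatic list, and Cdk1), by limma's interaction term with an adjusted p up to 0.1. Over all genes tested 9.85% passed (1712 of 17386), and the count of 7 is not read further. Values are the log2 difference of Cdk1 Liv-/- from WT in hepatocytes minus that in whole liver. Among the members they were 0.36 for Amy1 and 0.98 for Cela2a. Both are formed from the genotype differences that chose the members, so they are a description and not a test.

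The acinar and liver transcription factor Gata4 had -1.04 (standard error 0.30, adjusted p = 0.0813), from -0.76 in hepatocytes and 0.28 in whole liver. Prmt6, next to the amylase cluster, had -0.56 (standard error 0.16, adjusted p = 0.0841). For the sinusoidal endothelial markers it was -1.51 in Clec4g (standard error 0.41, adjusted p = 0.0708) and -1.44 in Stab2 (standard error 0.42, adjusted p = 0.0834), and for the stellate cell marker Dcn -1.67 (standard error 0.49, adjusted p = 0.0841).

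All 7 kept their sign in 19 of 19 alternatives. The adjusted p stayed at most 0.1 in 6 of 19 for each of Clec4g, Dcn, Gata4, Prmt6 and Stab2. For the members, whose values are no test, it did so in 6 of 19 for Amy1 and 9 of 19 for Cela2a. Without WT hepatocytes replicate 3 the calls of Clec4g (-1.24, adjusted p = 0.114), Gata4 (-0.82) and Prmt6 (-0.58) ended, and without Cdk1 Liv-/- whole liver replicate 3 those of Clec4g (-1.47), Dcn (-1.65), Gata4 (-1.12), Prmt6 (-0.60) and Stab2 (-1.5). Each of the 5 calls also ended without several of the other libraries. The adjusted p of Clec4g ran from 0.0225 to 0.171 over the alternatives.

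Genes named on other grounds passed as well. Cps1 had 1.61 (adjusted p = 0.0100), Ass1 1.30 (adjusted p = 0.0307), Cdh17 -0.77 (adjusted p = 0.0585), Kdr -1.89 (adjusted p = 0.0439) and Adgre1 -1.57 (adjusted p = 0.0870), which passed in 19 of 19, 19 of 19, 13 of 18, 18 of 19 and 5 of 19 alternatives. The lists hold 6 more genes that passed and are not given singly. Among the genes chosen for likeness to Amy1, Gm10658 (0.76), Hpd (1.13) and Sfxn2 (0.39) passed too, while Fpgs and Cyp2j5 did not. That choice makes their values a description and no test. The part of cell makeup in the interaction of Amy1 and Cela2a was not tested.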

How the results depend on the processing

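Single gene differences were recomputed under 14 alternatives a comparison and 19 for the interaction, 803 values for 53 results, of which 668 kept their direction and their side of the thresholds (or, untested, moved by less than 1 SD). Of the others, 106 lost a call, 4 gained one, 8 untested values moved further and 17 changed direction. These counts score the interactions of the members as calls, though they are given here without a test. They include losses for Amy1 and Cela2a and a gain for Cela1. The changes of direction concerned differences between compartments that were not called, and differences between genotypes near 0. Amy1 in WT became 0.096 with median-ratio size factors and 0.0062 with FPKM rescaled to the same sum, and Cela1 in WT 0.064 with median-ratio size factors. With these factors the difference between genotypes in hepatocytes became -0.0025 for Cela1 and -0.045 for Cela2a. With 1 library left out, the ranges that crossed 0 were -0.30 to 0.20 for Amy2a1 in Cdk1 Liv-/-, -0.16 to 0.065 for Cela1 in WT, -0.041 to 0.10 for Amy2a2 in Cdk1 Liv-/-, -0.18 to 0.22 for Cela1 and -0.12 to 0.17 for Cela2a between genotypes in hepatocytes, and for Spink1 -0.43 to 0.055 in WT and -0.054 to 0.32 in Cdk1 Liv-/-. The cause was not tested.

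The 81 genes called between the WT compartments were 172 with a pseudocount of 0.1, 48 with 1, 41 without the filter, 46 at a mean of at least 1 FPKM, 41 with median-ratio size factors, 51 with rescaled sums and 160 with all 12 libraries in 1 fit. With 1 library left out they were 1 to 527, and 527 without WT hepatocytes replicate 3. A pseudocount of 0.1 gave 3269 in place of 1906 between the Cdk1 Liv-/- compartments, and 1761 in place of 1107 and 1650 in place of 972 between genotypes in hepatocytes and whole liver. The 1712 of the interaction were 915 without the filter, 1040 with median-ratio size factors, and 78 to 2639 with 1 library left out (742 without Cdk1 Liv-/- whole liver replicate 3, 918 without WT hepatocytes replicate 3).

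The labels do not say whether libraries that share a replicate number came from the same mouse or litter. Between groups, libraries that share a number deviated from their means with correlations of -0.317 to 0.239. The highest was between replicate 3 of WT hepatocytes and of WT whole liver. Libraries with different numbers were not compared in this way, so a pairing cannot be judged from these values. The main comparisons treated the libraries as unpaired. With the replicate number as a block, limma called 0 genes between the WT compartments (3249 at an unadjusted p under 0.05) and 656 in the interaction.

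Median-ratio size factors shifted the median of all genes by 0.21 between the Cdk1 Liv-/- compartments, -0.17 between genotypes in whole liver and 0.12 in the interaction. The share of calls that were higher went from 13.7% to 27.6%, from 82.1% to 67.9% and from 23.9% to 52.7%. On that scale Amy1 differed by 0.61, -0.63 and 0.51, Cela1 by -0.20, 0.26 and -0.26, and Cela2a by 0.59, -1.09 and 1.05.

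With 3 libraries a group, small differences are not resolved, and where 1 was left out the remaining pair is assumed to vary like the other groups. Levels under about 0.05 FPKM rest on few reads, fewer the shorter the transcript, and an exact 0 in this table does not show absence. Amy2a2, Amy2a3 and Amy2a4 cannot be told apart by reads of this length, and Amy2a1 only in part from them. One library does not match the sex stated for the mice. Levels of liver cell markers differed between the groups, and cell makeup was not tested as a cause.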

Other observations

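Enzymes of glycogen and fat outside the pancreas were read beside the members. Of 16 glycogen and alpha-glucan enzymes, led by G6pc (114 to 381 FPKM) and Ugp2 (168 to 348 FPKM), limma called 0 between genotypes or compartments, and 7 in hepatocytes and 7 in whole liver between genotypes, 2 between the WT compartments and 9 between those of Cdk1 Liv-/- had an unadjusted p under 0.05. Over all genes tested the shares at that p were 28.4%, 46.6%, 18.8% and 46.2%, and of those called 6.37%, 5.59%, 0.466% and 11.0%. Of 7 lipases, led by Lpl (96.5 to 227 FPKM) and Lipa (92.1 to 132 FPKM), 2 were called between genotypes and 0 between compartments (1 in WT and 3 in Cdk1 Liv-/- at an unadjusted p under 0.05). Lpl fell in whole liver (log2 difference -1.03, standard error 0.05, adjusted p = 0.000286 from limma), which came to -0.99, short of a call, without WT whole liver replicate 3 and with FPKM rescaled to the same sum. Lipg, the endothelial lipase, rose in hepatocytes (1.62, standard error 0.24, adjusted p = 0.0122 from limma).

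Of 8 intestinal brush border markers, Fabp2 (69.3 to 167 FPKM) and the glucosidase Mgam (8.68 to 29.0 FPKM) were the most abundant, and Sis and Alpi were listed at 0 in every library. Treh, which cuts trehalose, rose in hepatocytes (1.08, standard error 0.18, adjusted p = 0.0173 from limma) and whole liver (1.03, standard error 0.16, adjusted p = 0.00787 from limma), and Cdh17 in whole liver (1.58, standard error 0.07, adjusted p = 0.000206 from limma). Cdh17 was at 0 to 0.02 FPKM in WT, so the added 0.5 FPKM sets the size of its difference, which ran from 1.00 to 3.36 over the alternatives. The call of Treh ended without Cdk1 Liv-/- hepatocytes replicate 3 (0.92) in hepatocytes, and without WT whole liver replicate 3 (0.98) or Cdk1 Liv-/- whole liver replicate 3 (0.86) in whole liver. It also ended with a pseudocount of 1 in both (0.72 and 0.66) and with median-ratio size factors in whole liver (0.90), and the difference ran up to 1.92. Of 10 gastric markers in the table, 4 were listed at 0 throughout and 1, Atp4a, was called. It was at 0.28 to 0.69 FPKM in WT and 1.37 to 6.81 FPKM in Cdk1 Liv-/- (log2 difference 1.95 in hepatocytes, standard error 0.46, adjusted p = 0.0478 from limma; 1.46 in whole liver, standard error 0.32, adjusted p = 0.0197 from limma). The hepatocyte call of Atp4a ended without any of WT hepatocytes replicates 1, 2 and 3, at 1.93 to 1.97. Between compartments limma called 0 genes of either list, with 2 brush border markers at an unadjusted p under 0.05 in Cdk1 Liv-/- and 0 in the other cases. Of all genes tested, 6.37% were called between genotypes in hepatocytes and 5.59% in whole liver. Between compartments 0.466% were called in WT and 11.0% in Cdk1 Liv-/-.

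Liver cell lists were read for the makeup of the libraries. Between Cdk1 Liv-/- hepatocytes and whole liver, 5 of 5 Kupffer cell, 5 of 5 sinusoidal endothelial, 5 of 5 stellate cell, 7 of 7 erythroid, 5 of 6 neutrophil and 4 of 5 bile duct markers were lower in hepatocytes, and 3 of 10 hepatocyte markers were higher (Cps1, Ass1 and Tat). Between the WT compartments 2 of 43 of these genes were called, the bile duct markers Krt19 and Epcam, both lower in hepatocytes. Their calls passed in 5 and 8 of 14 alternatives and ended with the replicate number as a block and without any of WT hepatocytes replicates 1 and 2 and WT whole liver replicates 1 and 2. Between genotypes in hepatocytes, 5 of 5 endothelial markers, Adgre1, Apoa1 and Alas2 were lower and the bile duct markers Spp1 and Sox9 higher. In whole liver Spp1, Sox9, Epcam, Col1a1, S100a8, S100a9 and Camp were higher. Of all genes tested, 11.0% were called between the Cdk1 Liv-/- compartments, and 1644 of those 1906 were lower in hepatocytes. Between the WT compartments 0.466% were called, and between genotypes 6.37% in hepatocytes and 5.59% in whole liver.

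Without WT hepatocytes replicate 3 the calls of Adgre1, Alas2 and, of the endothelial markers, Clec4g (-0.84) ended in hepatocytes, and the other 4 endothelial calls held. Without Cdk1 Liv-/- whole liver replicate 3 the calls that ended included Mpo and Spp1 between the Cdk1 Liv-/- compartments, and Epcam, S100a8, S100a9 and Camp between genotypes in whole liver, while those of Cdh17 (1.57), Lpl (-1.02), Atp4a (1.49) and Gata4 (-1.39) held. Of the marker calls between genotypes, Spp1, Sox9, Col1a1, Lyve1 and Kdr passed in 14 of 14 alternatives, Apoa1 in 11 and the others in 6 to 9, so single libraries besides these 2 also end the latter.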
